A study of Mus musculus with 4 samples.

Results

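Tenascin-C, fibronectin, the syndecans and a set of secreted proteoglycans were followed in molar tooth germs of mouse embryos cultured with or without the dioxin TCDD (2,3,7,8-tetrachlorodibenzo-p-dioxin). The genes were listed by name as matrix and cell-surface components of the tooth germ, and every probe set annotated to a single listed symbol was taken. All 10 listed genes, Tnc, Fn1, Sdc1, Sdc2, Sdc4, Vcan, Dcn, Bgn, Lum and Postn, were on the array, by 14 of its 12488 probe sets and as 10 of the 8252 genes with a probe set of 1 symbol. Tnc, Sdc1, Sdc2 and Bgn had 2 probe sets and the other 6 genes had 1.

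The explants were mandibular molar regions of NMRI embryos at embryonic day 14, grown for 24 h on filters in a serum-containing medium. The DMSO group received the solvent alone at 0.65%, and the TCDD group received TCDD at 1 µM, which had been dissolved in DMSO. Each group had 2 arrays (murine U74v2A), and each array carried RNA of about 60 pooled explants from 3 experiments, so that an array stands for a pool and not for an embryo. RNA input was 11 µg for replicate 1 of both groups, 7 µg for DMSO replicate 2 and 8 µg for TCDD replicate 2. The medium of DMSO replicate 2 is the only one whose label lists ascorbic acid. Nothing in the labels says that pools of the same number came from the same experiments.

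In the tooth germ, an epithelium grows into a condensing neural crest mesenchyme, and matrix molecules lie between and around the mesenchymal cells. Syndecan-1, a transmembrane heparan sulfate proteoglycan, and tenascin-C, a large multi-armed glycoprotein that syndecan-1 can bind, are known to accumulate together in the mesenchyme that condenses around the tooth bud. Fibronectin forms fibrils that integrins hold, versican binds hyaluronan and carries chondroitin sulfate chains, and decorin, biglycan and lumican sit on collagen fibrils. TCDD acts through the aryl hydrocarbon receptor, which with its partner ARNT binds DNA at the core motif GCGTG.

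No probe set of these genes changed past the test after TCDD, although the fitted difference was below 0 at all 12 probe sets bright enough to be tested. Each difference was small. The log2 differences of the 10 genes, each at its brightest probe set, ran from -0.27 for Dcn to -0.04 for Lum, with a median of -0.14 beside 0.02 over the 4594 genes in the fit. Signals are MAS5 units on arrays scaled to a target of 100. A difference is on the log2(signal + 16) scale, where the offset of 16 damps noise of dim probe sets and understates their change. A probe set entered the limma fit if its mean signal over the 4 arrays was at least 50. This left 5783 probe sets, and p-values were adjusted over all of them (Benjamini-Hochberg). By that test 0 of the 12 probe sets passed, where 0.0692% of all did. At an unadjusted limma p under 0.05 there were also 0 of 12, beside 2.59% of all. The smallest unadjusted p was 0.203, and the adjusted p was 0.997 at each of the 12.

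The direction counts were less even than over the whole array. A difference below 0 was found at 12 of 12 probe sets, where 48.9% of all probe sets in the fit lay below 0. The sizes were ordinary: the median absolute difference was 0.14 at the 12 probe sets and 0.15 over all. The median SD between arrays of a group, pooled over both groups, was 0.18 at the 12 probe sets and 0.19 over all, so a typical difference was no larger than the spread between replicates. Both TCDD arrays lay below both DMSO arrays at 2 of 12 probe sets, beside 14.6% of all, and above them at 0 of 12, beside 15.3% of all. With quantile normalization all 12 differences were again below 0. All 12 comparisons use the same DMSO arrays, so their shared sign is not 12 separate observations, and the genes were listed with earlier results of these data known.

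**Figure D1:**
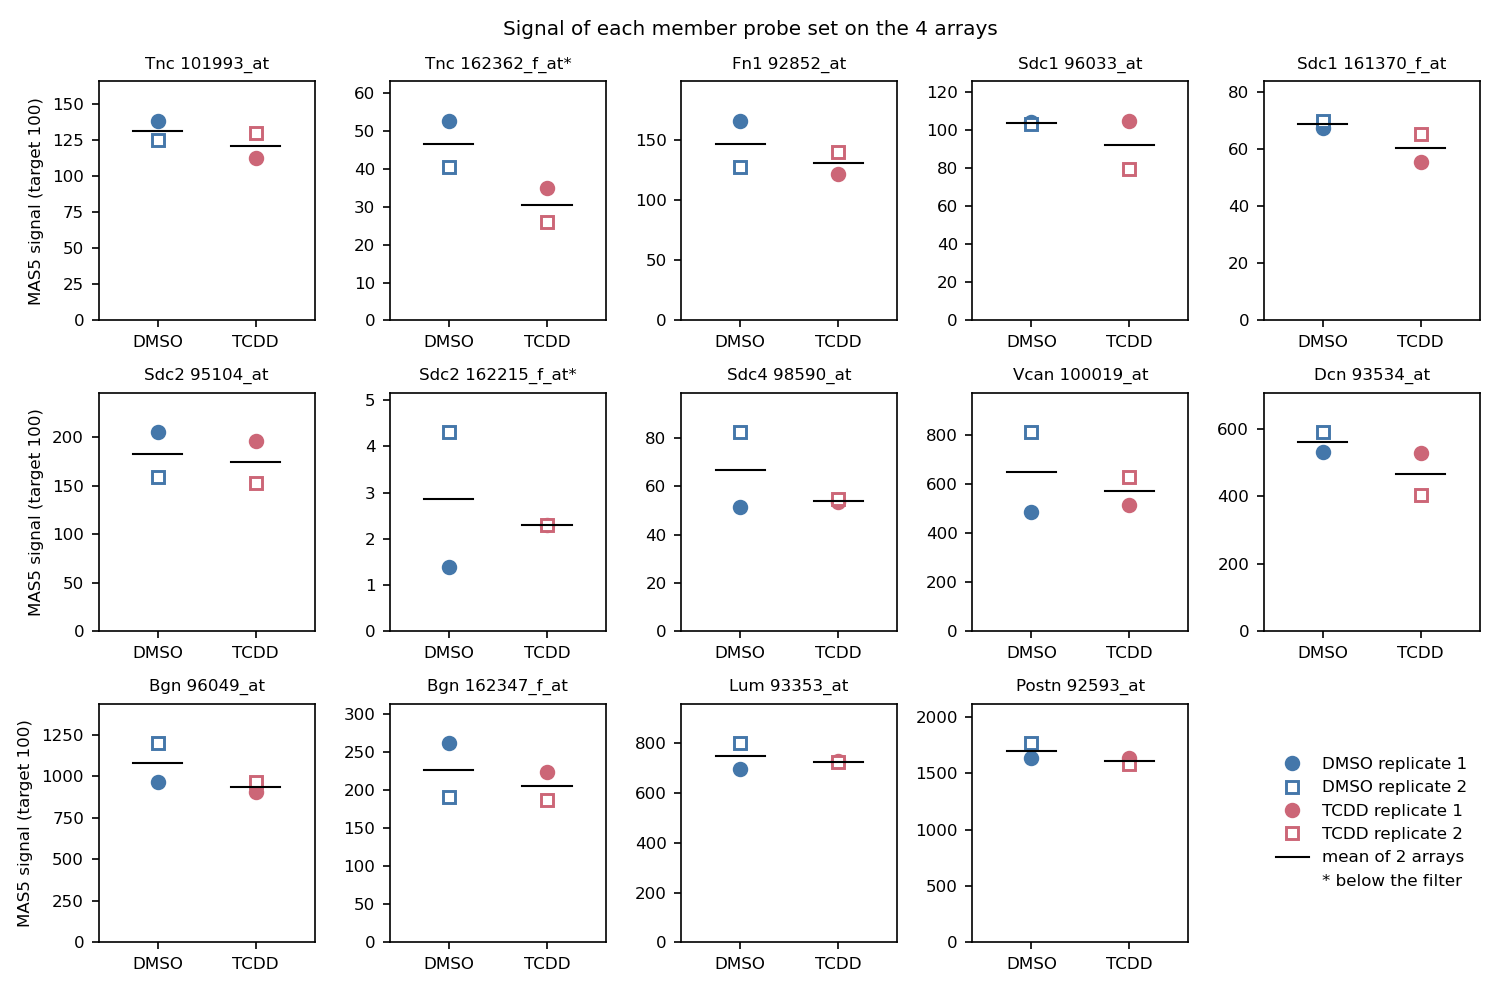
MAS5 signal (linear axis from 0, target 100) of each of the 14 probe sets in DMSO (blue) and TCDD (red); filled circles are replicate 1, open squares replicate 2, and bars the mean of 2 arrays. The groups overlap at most probe sets, and both TCDD arrays lie below both DMSO arrays at Dcn, at Sdc1 161370_f_at and at the dim Tnc 162362_f_at.

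The promoter windows that could be looked up hold the receptor's core motif in 4 of 6 genes. RefSeq windows on GRCm38.p6, from 250 bases before to 50 bases after an annotated start, were matched by symbol for Tnc, Sdc1, Sdc4, Vcan, Bgn and Postn, 8 windows in all. GCGTG was searched on both strands (CACGC is its reverse complement), and at least 1 match was present in 35.2% of the 27025 genes of the same table. The 4 windows with a match are shown because TCDD acts through a receptor that binds this core, with the match in capitals. They lie at chr12:8771146-8771445 (plus strand) for Sdc1, chr2:164443139-164443438 (minus strand) for Sdc4, chrX:73483351-73483650 (plus strand) for Bgn and chr4:64046887-64047186 (minus strand) for Tnc.
Sdc1: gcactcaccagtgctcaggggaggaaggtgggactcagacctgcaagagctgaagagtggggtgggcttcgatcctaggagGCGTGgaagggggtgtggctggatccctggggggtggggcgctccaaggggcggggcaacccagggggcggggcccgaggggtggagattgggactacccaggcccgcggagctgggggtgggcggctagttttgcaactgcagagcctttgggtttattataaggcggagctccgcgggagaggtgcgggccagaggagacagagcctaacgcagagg
Sdc4: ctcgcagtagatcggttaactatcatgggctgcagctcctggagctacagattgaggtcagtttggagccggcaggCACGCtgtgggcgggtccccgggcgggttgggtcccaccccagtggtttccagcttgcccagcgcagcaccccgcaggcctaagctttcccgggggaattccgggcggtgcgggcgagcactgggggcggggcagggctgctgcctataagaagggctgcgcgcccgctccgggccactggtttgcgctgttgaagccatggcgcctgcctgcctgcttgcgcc
Bgn: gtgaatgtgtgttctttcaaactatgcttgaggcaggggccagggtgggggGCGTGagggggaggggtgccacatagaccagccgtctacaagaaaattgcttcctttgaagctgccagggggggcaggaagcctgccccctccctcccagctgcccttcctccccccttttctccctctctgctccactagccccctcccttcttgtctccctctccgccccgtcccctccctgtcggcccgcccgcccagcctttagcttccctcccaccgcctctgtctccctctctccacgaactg
Tnc: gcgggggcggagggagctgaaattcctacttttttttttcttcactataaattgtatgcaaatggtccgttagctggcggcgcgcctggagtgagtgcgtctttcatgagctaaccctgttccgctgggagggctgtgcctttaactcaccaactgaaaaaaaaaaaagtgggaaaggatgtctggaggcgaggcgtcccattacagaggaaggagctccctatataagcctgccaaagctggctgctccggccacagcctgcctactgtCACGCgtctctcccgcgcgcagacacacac
The match begins 169 bases before the start in Sdc1, 174 before it in Sdc4 and 199 before it in Bgn, whereas in Tnc it lies at position 21 after the start. The other Tnc window, which begins upstream and overlaps the printed window, and the windows of Vcan and Postn hold no match. A match is a description of these letters only. The 4 genes with a match had differences of -0.11 (Tnc), -0.16 (Sdc1), -0.22 (Sdc4) and -0.2 (Bgn), and Vcan and Postn, without a match, had -0.14 and -0.08.

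Tenascin-C and fibronectin are glycoproteins of the matrix. Tnc at its brighter probe set (101993_at) gave 137.8 and 124.7 on the DMSO arrays against 112.2 and 129.7 on the TCDD arrays. TCDD replicate 2 lay between the DMSO arrays, so the groups overlap. The log2 difference was -0.11 ± 0.21 (SE, n = 2 per group), with a limma adjusted p of 0.997 and a 95% interval of -0.56 to 0.35. It ranged from -0.01 without TCDD replicate 1 to -0.2 without TCDD replicate 2, and was -0.04 without DMSO replicate 1 and -0.17 without DMSO replicate 2.

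The other Tnc probe set (162362_f_at) is dimmer and carries the suffix that Affymetrix used for probes shared within a sequence family. The same suffix marks Sdc1 161370_f_at, Sdc2 162215_f_at and Bgn 162347_f_at. Among the related genes below it marks Itgav 104386_f_at, Itgb1 100123_f_at and Itgb5 162218_f_at, so the same caution holds there. This Tnc probe set read 52.6 and 40.5 on the DMSO arrays against 35.1 and 26.1 on the TCDD arrays. Both TCDD arrays were below both DMSO arrays, and the log2 difference was -0.42. With a mean of 38.6 it was under the filter and outside the fit, and it did not pass in a fit without the filter. The value of TCDD replicate 2 was among those stored as a calendar day and was restored as described under processing.

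Fn1 (92852_at) gave 165.5 and 127.4 on the DMSO arrays against 121.3 and 139.6 on the TCDD arrays. DMSO replicate 1 was the high array, and the other 3 lay within a narrow band. The log2 difference of -0.14 ± 0.22 (SE, n = 2 per group; limma adjusted p 0.997) became 0.03 without DMSO replicate 1. Without DMSO replicate 2 it was -0.31, more than 1.5 times as large.

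The syndecans are cell-surface heparan sulfate proteoglycans that act as co-receptors for growth factors and matrix. Sdc1 at 96033_at gave 104.1 and 103.4 on the DMSO arrays against 104.7 and 79.6 on the TCDD arrays. Only TCDD replicate 2 stood apart, and without it the log2 difference of -0.16 ± 0.22 (SE, n = 2 per group; limma adjusted p 0.997) was 0.01.

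Its other probe set (161370_f_at) gave 67.4 and 69.6 on the DMSO arrays against 55.5 and 65.3 on the TCDD arrays, with both TCDD arrays below both DMSO arrays. There TCDD replicate 1 was the lower array, where the first probe set had TCDD replicate 2 lower. The log2 difference was -0.15 ± 0.22 (SE), so both Sdc1 probe sets gave nearly the same mean difference from different arrays.

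Sdc2, the syndecan of mesenchymal cells, gave 204.7 and 159.1 on the DMSO arrays against 196.2 and 152.6 on the TCDD arrays at 95104_at. The arrays fell by replicate number: replicate 2 was below replicate 1 by 0.33 on the log2 scale in both groups, while TCDD minus DMSO was -0.06 ± 0.22 (SE, n = 2 per group; limma adjusted p 0.997). Leaving out either DMSO replicate 1 or TCDD replicate 2 turned it to 0.11. The other Sdc2 probe set (162215_f_at) was at 1.4, 4.3, 2.3 and 2.3 on the 4 arrays, all values stored as days, and gives no usable level.

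Sdc4, a syndecan of focal adhesions, had the widest interval of the set. Its probe set (98590_at) read 51.5 and 82.3 on the DMSO arrays against 53.6 and 54.6 on the TCDD arrays. DMSO replicate 2 alone was high, and the other 3 arrays differed by little. The log2 difference was -0.22 ± 0.25 (SE, n = 2 per group), with a limma adjusted p of 0.997, a 95% interval of -0.77 to 0.34, and a value of 0.05 without DMSO replicate 2.

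**Figure D2:**
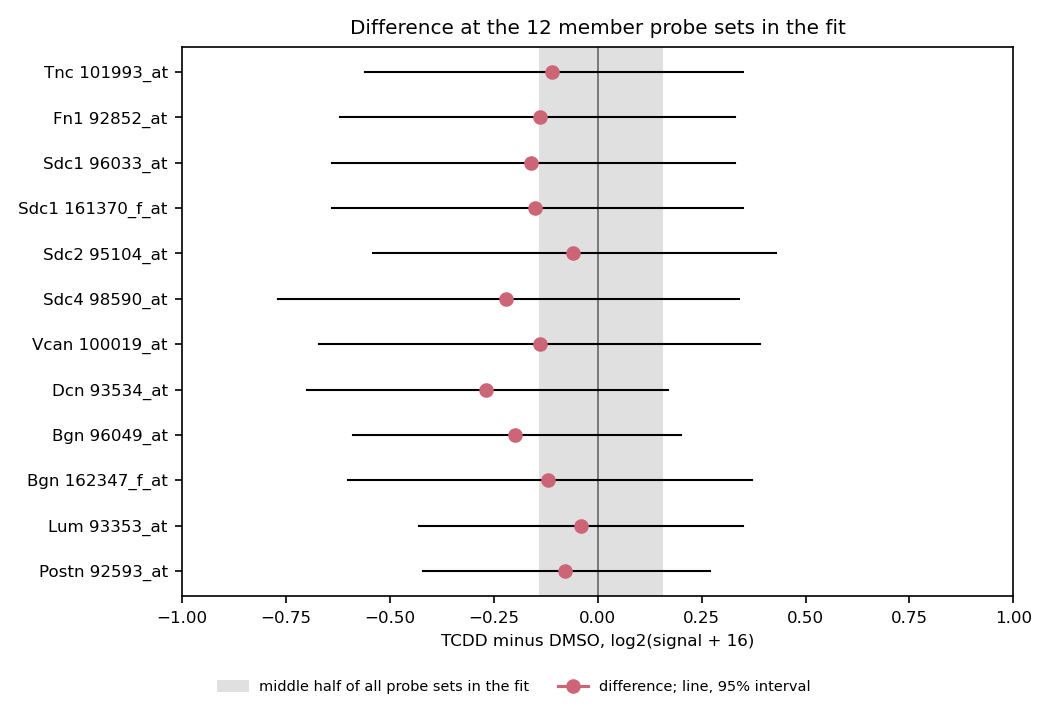
TCDD minus DMSO on the log2(signal + 16) scale (x axis) for the 12 probe sets in the fit (y axis); points are the fitted differences, lines their 95% intervals, and the grey band the interquartile range of all 5783 probe sets, from -0.14 to 0.15. All 12 points lie left of 0 and all 12 intervals include 0.

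Versican, the large hyaluronan-binding proteoglycan of embryonic mesenchyme, varied most between replicate pools. Vcan (100019_at) gave 485.8 and 812.0 on the DMSO arrays against 514.8 and 629.3 on the TCDD arrays, so both TCDD arrays lay between the DMSO arrays. DMSO replicate 2 exceeded DMSO replicate 1 by 0.72 on the log2 scale, and 5.83% of all probe sets in the fit had a difference between these arrays at least as large in either direction. TCDD minus DMSO was -0.14 ± 0.24 (SE, n = 2 per group; limma adjusted p 0.997). It was 0.22 without DMSO replicate 2 and -0.5 without DMSO replicate 1, so its sign depended on which DMSO array was kept.

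Decorin, biglycan and lumican are small leucine-rich proteoglycans of collagen fibrils, and decorin and biglycan also bind TGF-beta. Dcn (93534_at) gave 531.7 and 589.9 on the DMSO arrays against 529.2 and 403.7 on the TCDD arrays. Both TCDD arrays were lower, TCDD replicate 1 by hardly anything: its distance from DMSO replicate 1 was 0.01 on the log2 scale. The log2 difference of -0.27 ± 0.2 (SE, n = 2 per group) was the lowest of the set, with a limma adjusted p of 0.997. A difference at least as large in either direction was seen at 22.2% of all probe sets. Without TCDD replicate 2 it was -0.08, and without TCDD replicate 1 it was -0.46.

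Bgn at 96049_at gave 963.6 and 1197.2 on the DMSO arrays against 904.9 and 967.0 on the TCDD arrays, with TCDD replicate 2 just above DMSO replicate 1. The log2 difference was -0.2 ± 0.18 (SE, n = 2 per group; limma adjusted p 0.997), and -0.04 without DMSO replicate 2. Its other probe set (162347_f_at) gave 262.0 and 190.9 on the DMSO arrays against 224.5 and 187.3 on the TCDD arrays. It differed by -0.12 ± 0.22 (SE), and by 0.1 without DMSO replicate 1. The 2 Bgn probe sets disagreed on the pools: in DMSO, replicate 2 minus replicate 1 was 0.31 at the first and -0.43 at the second.

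Lum (93353_at) gave 697.4 and 799.1 on the DMSO arrays against 726.2 and 725.4 on the TCDD arrays. The TCDD arrays were nearly equal and lay between the DMSO arrays, with a log2 difference of -0.04 ± 0.18 (SE, n = 2 per group; limma adjusted p 0.997).

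Periostin, a matricellular protein of collagen-rich mesenchyme and of the later periodontal ligament, was the steadiest gene of the set. Postn (92593_at) gave 1631.9 and 1766.0 on the DMSO arrays against 1637.4 and 1581.8 on the TCDD arrays. Its pooled SD between arrays was 0.06 on the log2 scale, and its difference of -0.08 ± 0.16 (SE, n = 2 per group; limma adjusted p 0.997) had the narrowest 95% interval, -0.42 to 0.27.

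The intervals bound what 4 arrays could show. As a ratio of signal + 16, TCDD over DMSO, the lower 95% bounds of the 12 probe sets ran from 0.58 (Sdc4) to 0.75 (Postn) and the upper bounds from 1.12 (Dcn) to 1.35 (Sdc2). A p that misses the threshold does not show that the levels were equal. In pooled tissue, fewer cells that express a gene and less RNA per cell cannot be told apart. The labels do not say whether both pools of a group came from different experiments, so the spread between arrays may in part be technical. Each limma SE, interval and p-value blends a probe set's own spread with that typical of probe sets of its brightness. The typical spread supplied 8.8 of the 10.8 degrees of freedom. Postn, for example, had a pooled SD of 0.06 but an SE of 0.16.

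DMSO replicate 2 was the highest of the 4 arrays at 7 of the 12 probe sets, where it was the highest at 20.2% of all probe sets in the fit. The 7 were Sdc1 161370_f_at, Sdc4, Vcan, Dcn, Bgn 96049_at, Lum and Postn. This is the only array whose medium label lists ascorbic acid, and it also had the lowest RNA input, 7 µg. Whether the other media lacked ascorbic acid is not stated. The part of either in the differences was not tested, as both fall on this 1 array. Without DMSO replicate 2, 9 of the 12 differences were below 0, with Vcan at 0.22, Lum at 0.06 and Sdc4 at 0.05 above it, and the median over the genes was -0.1. Without DMSO replicate 1 it was also 9 of 12, without TCDD replicate 1 it was 11 and without TCDD replicate 2 it was 9. Leaving out an array leaves 1 array in its group, which is then assumed to vary like the other group.

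**Figure D3:**
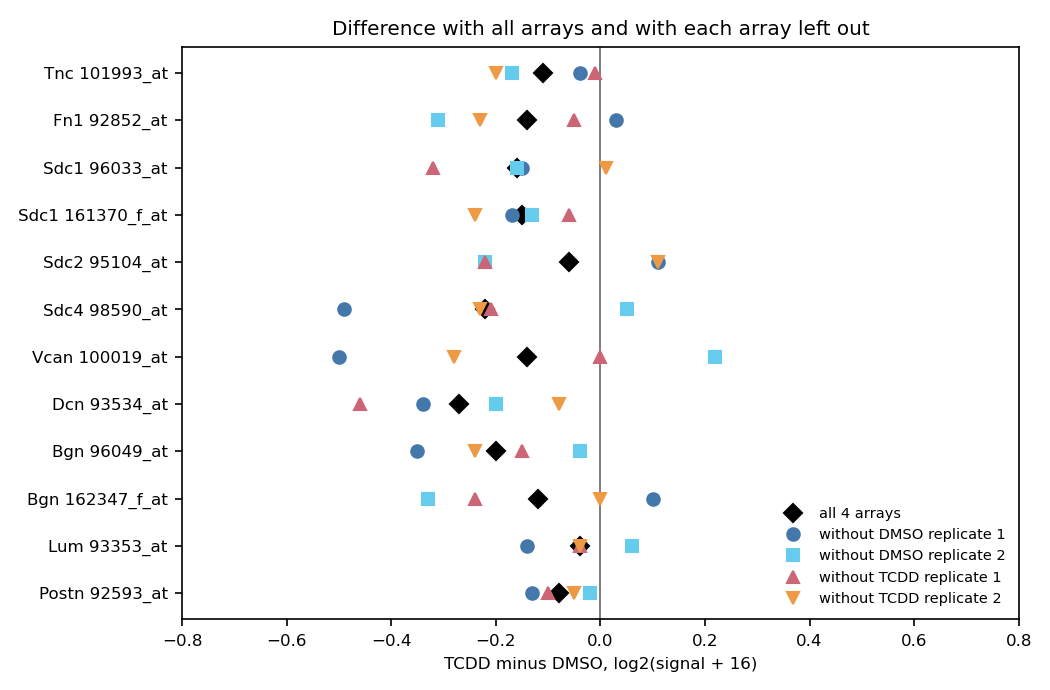
TCDD minus DMSO on the log2(signal + 16) scale (x axis) for the 12 probe sets (y axis), with all 4 arrays (black diamonds) and with each array left out in turn (coloured symbols). Vcan spans -0.5 to 0.22, whereas Postn stays between -0.13 and -0.02.

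Differences by replicate number were about as frequent at these probe sets as over the array. Replicate 2 was above replicate 1 in both groups at 4 of 12 probe sets (Sdc1 161370_f_at, Sdc4, Vcan and Bgn 96049_at), beside 30.8% of all. It was below in both groups at 3 (Sdc1 96033_at, Sdc2 and Bgn 162347_f_at), beside 28.2% of all. Vcan had replicate differences of 0.72 in DMSO and 0.28 in TCDD, and Sdc2 had -0.33 in both. Tnc and Fn1 had opposite signs in the groups, -0.13 and 0.18 for Tnc and -0.34 and 0.18 for Fn1. RNA input also differs between the replicate numbers, and its part was not tested.

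**Figure D4:**
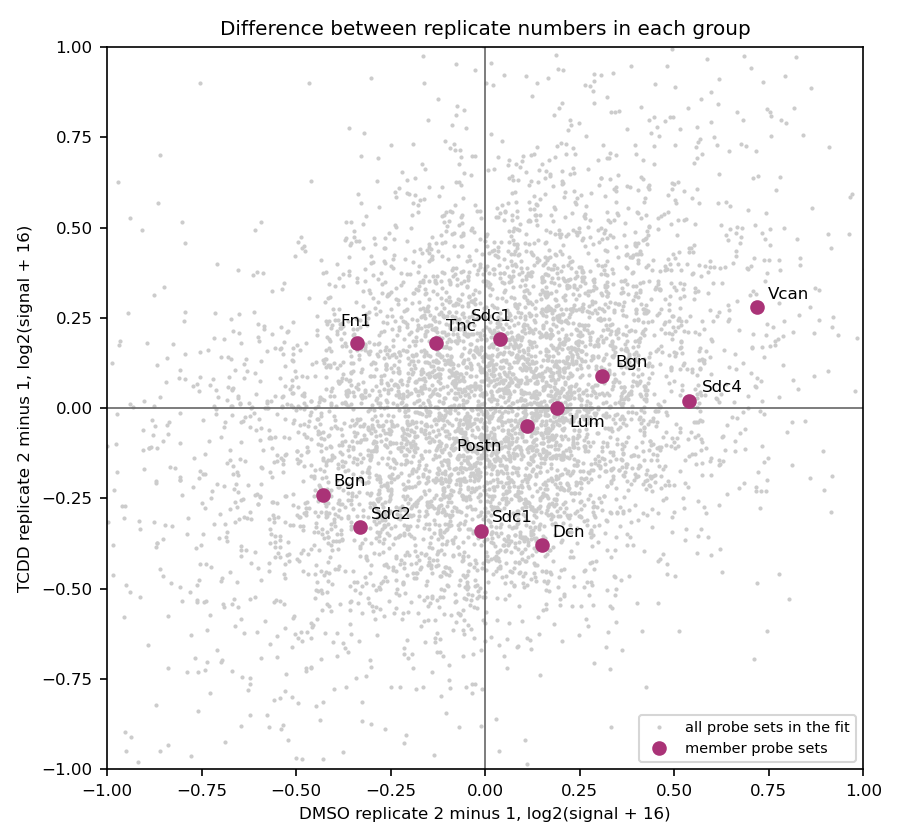
Replicate 2 minus replicate 1 on the log2(signal + 16) scale in DMSO (x axis) and in TCDD (y axis) for the 12 probe sets (purple, named by gene) and all probe sets in the fit (grey); 160 grey points lie outside the axes. Vcan lies farthest right at 0.72 and 0.28, and Sdc2 and a Bgn probe set lie at lower left.

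Other genes of the same matrix were taken from 6 lists of binding partners, relatives and glycosaminoglycan enzymes. Of 87 genes listed, the array carried 60, and 30 of these were bright enough at their brightest probe set. None passed the limma test over all probe sets. At an unadjusted limma p under 0.05 there was 1 of 30, beside the 2.59% given above. Of the 30, 23 had a difference above 0 and 7 below it, with a median of 0.08. Over the whole fit 51.1% of probe sets were above 0, the share against which the list counts that follow are to be read, and the median over all genes was 0.02. The median of the 10 genes described here was -0.14. The difference between the medians was not tested, since both sets were chosen with results in view.

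Among heparan sulfate proteoglycans other than the listed syndecans (6 on the array), 5 of 5 in the fit were above 0 and 0 passed. Sdc3, the remaining syndecan gene, was under the filter and differed by -0.18. Agrn, which encodes the basement membrane proteoglycan agrin, differed by 0.24 (0.18 at its other probe set, 104763_at), and Gpc4, a glypican gene, by 0.25. Genes of heparan and chondroitin sulfate synthesis had 6 of 8 above 0 and 0 passed, the largest being B3gat3, which completes the linker sugar of the chains, at 0.14, and Glce, the epimerase of heparan chains, at 0.12.

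Of 3 measured integrin genes for fibronectin and tenascin, 2 were above 0 and 0 passed. Itgav differed by 0.21 and Itgb1 by 0.14 at their brightest probe sets. The dimmer Itgav probe sets, under the filter, differed by -0.37 and -0.23. Itgb5 differed by -0.02 at its brightest probe set and by -0.4 ± 0.26 (SE) at a dimmer one in the fit (162218_f_at), where both TCDD arrays were below both DMSO arrays (limma unadjusted p 0.161, adjusted p 0.997); the dimmer one was named after its values were seen. Hyaluronan genes had 2 measured, Has2, a hyaluronan synthase, at 0.11 and Hyal2, a hyaluronidase, at 0.07, and 0 passed.

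Of the other small leucine-rich proteoglycans only Ogn, which encodes osteoglycin, reached the filter. Ogn (99549_at) gave 83.5 and 84.0 on the DMSO arrays against 50.2 and 68.3 on the TCDD arrays, so both TCDD arrays were below both DMSO arrays. The log2 difference was -0.42 ± 0.23 (SE, n = 2 per group; limma adjusted p 0.997), and its other probe set (160877_at) also differed by -0.42, without overlap of the groups. Dcn, Bgn and Lum were also below 0, as were 48.9% of all probe sets in the fit. Lum was only at -0.04, and at 0.06 without DMSO replicate 2. Under the filter, Omd, Epyc and Kera differed by -0.27, -0.44 and -0.17, but Chad by 0.43 and Fmod by 0.01. Epyc was at most 9.8 and Kera at most 13.7 on any array, under the offset of 16. For Chad, DMSO replicate 1 alone was low at 9.9, against 37.9, 36.7 and 32.3 on the other arrays.

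Matricellular proteins and fibulins had 8 of 11 above 0 and 0 passed. Thbs2, which encodes the anti-angiogenic matricellular protein thrombospondin-2, gave 130.2 and 77.9 on the DMSO arrays against 168.7 and 185.2 on the TCDD arrays. The groups did not overlap, and the log2 difference was 0.72 ± 0.24 (SE, n = 2 per group; limma adjusted p 0.997). It was the single gene of the 30 with an unadjusted limma p under 0.05, at 0.0135. Mfap2, a microfibril gene, differed by -0.26.

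**Figure D5:**
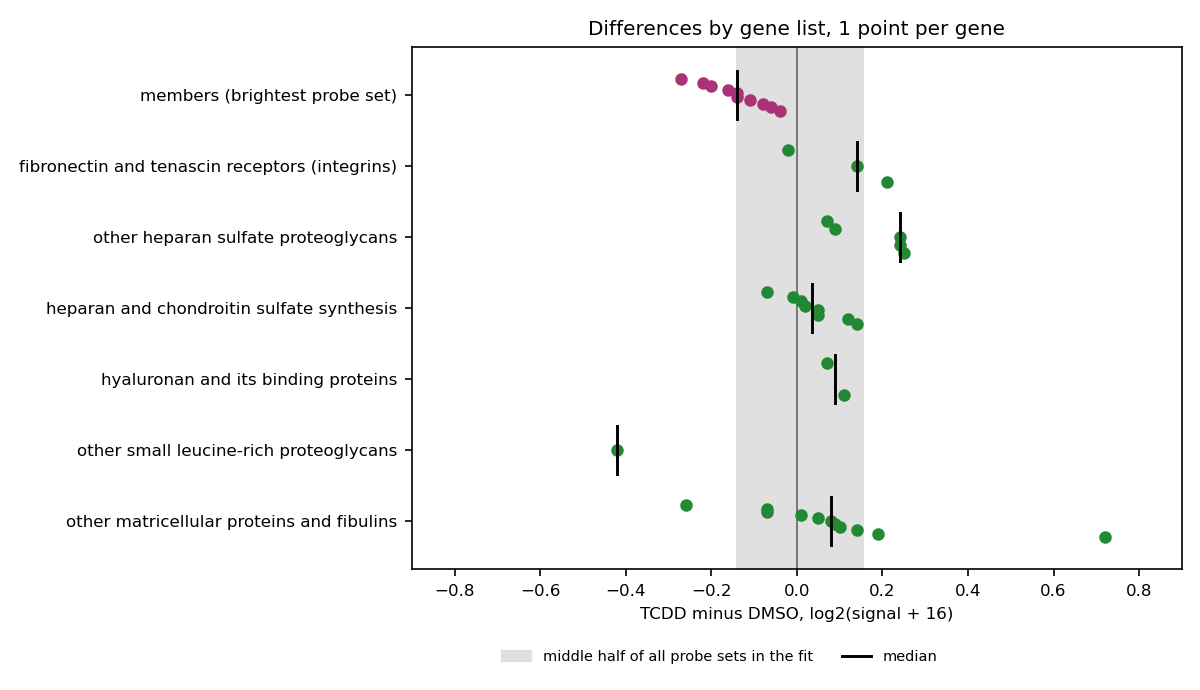
TCDD minus DMSO on the log2(signal + 16) scale (x axis), 1 point per gene at its brightest probe set, for the 10 genes described here (purple) and 6 lists of related matrix genes (green); vertical bars are medians and the grey band is the interquartile range of all probe sets in the fit. The purple points lie between -0.27 and -0.04, and Thbs2 stands apart at 0.72.

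By shape over the 4 arrays, the probe sets most like Vcan, the widest ranging of the set, belonged to Sdhd, Hey1 and Gpaa1. Their root mean square distances from Vcan in centred log2 values were 0.052, 0.052 and 0.056. Of the probe sets of other genes compared, 30 of 5251 lay within 0.1.

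The tissue label was checked against markers. The array carried all 10 mesenchyme markers listed, 9 of them in the fit, Msx1 included, and their summed signal was 2683 and 3307 on the DMSO arrays against 2831 and 3371 on the TCDD arrays. Of 9 epithelial markers on the array 7 reached the filter. Krt14 and Krt5, keratins of basal epithelium, did not and were at most 10.8 on any array. The sum was 2696 and 3519 on the DMSO arrays against 3409 and 3866 on the TCDD arrays, most of it from Krt17 and Dsp. Krt17 gave 1209.5 and 1600.5 against 1532.4 and 1709.2, and Dsp 936.4 and 1346.5 against 1379.2 and 1566.5. Of the 7 in the fit, 5 were above 0 and 2 below it. Cdh1, at -0.44, had both TCDD arrays below both DMSO arrays. Skeletal muscle markers (10 on the array, 4 in the fit) summed to 880 and 375 on the DMSO arrays against 1152 and 428 on the TCDD arrays. That sum moved with replicate number. Bone markers (2 on the array) summed to 1193 and 701 and to 1238 and 658, most of it from Ibsp. Ibsp gave 1029.2 and 479.6 on the DMSO arrays against 1053.6 and 446.7 on the TCDD arrays. Alpl, the other bone marker, went the other way by replicate number, at 163.7 and 221.8 against 183.9 and 211.8. Cartilage markers (7 on the array, 2 in the fit) summed to 292 and 166 on the DMSO arrays against 233 and 207 on the TCDD arrays, and Acan and Matn1 among them were at most 25.2. Macrophage markers (12 on the array) were above 0 at 9 of 9 in the fit. Those under the filter were below 0, Adgre1 at -0.28, Fcgr3 at -0.33 and Fcer1g at -0.04. The sums over all 12 were 940 and 816 on the DMSO arrays against 1087 and 1077 on the TCDD arrays. Endothelial markers were above 0 at 2 of 5 in the fit, with sums from 670 to 734. An unadjusted limma p under 0.05 was found for 3 of the 9 macrophage markers, beside 2.59% of all probe sets in the fit, of which 51.1% were above 0. Nerve markers summed to 529 to 667 and globin and other red cell markers to 2786 to 4012 over the arrays. None of these markers passed the test, and their part in the differences above was not tested.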

How the data were processed

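Expression was measured on 4 murine U74v2A arrays, 2 of DMSO and 2 of TCDD. Per the labels, the authors made the deposited signal intensity with Affymetrix Microarray Suite 5.0 (MAS5) and scaled each array to a target of 100. No build, probe-level file or detection call was used here. Of 49952 cells, 18515 (37.1%) held the serial number of a calendar day, and these were turned back into day.month; the mean trimmed by 2% at each end was then 99.98 on each array. Of the 14 probe sets described, 2 held such cells. Symbols came from the annotation of the platform and the gene table of GRCm38.p6: 10855 had 1 symbol, and 10839 of these matched. Promoter windows are RefSeq's. Precision is limited by the number of arrays.

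limma 3.58.1 in R 4.3.3 (lmFit, eBayes with trend) was run across all 5783 probe sets with a mean of at least 50, control probe sets left out, on log2(signal + 16). It was also run on 10 simulated data sets with 200 changed probe sets each. There it recovered 20.7% of changes of 1.5-fold, 81.6% of 2-fold and 100% of 4-fold, with 11 false calls per data set on average. The simulated noise was drawn independently for each array, whereas same-numbered measured arrays deviated together (correlation 0.38). With 200 planted changes the adjusted threshold is also easier to reach than in the measured data, where 4 passed. The recovered shares are therefore not the power of the measured fit. The fit to the measured signals had 10.8 total degrees of freedom, 8.8 of them from the prior over all probe sets. Related genes were named by a rule: the 2 smallest p of each list. The likeness rule took the 3 smallest distances. The genes, lists and rules were chosen with earlier results of these data known. Alternatives were offsets of 1 and 64, other filters, quantile normalization, no trend, day cells left out, each array left out, and a replicate block.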

Additional observations from a re-analysis of the deposited data

How the results depend on the processing

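None of the listed genes' probe sets passed under any of the 12 alternatives to the fit, and 4 in the whole table passed in the fit as reported. That total was 2 without a filter, 2 without probe sets holding day cells, between 2 and 5 with an array left out, and 32 (18 higher, 14 lower) with the replicate block. With the block the smallest limma adjusted p among the listed genes was 0.761. Same-numbered arrays deviated together over all probe sets in the fit (correlation 0.38), but with 2 numbers and no label on pairing this is no basis for a paired design. With quantile normalization 3 passed (2 higher, 1 lower). The median difference over the listed genes in the fit stayed between -0.15 and -0.1, over 10 genes except at a mean signal of at least 100, where Sdc1 and Sdc4 dropped out and 8 genes remained. Of 141 recomputed differences of single probe sets, 131 kept their sign and 10, all with an array left out, did not. The filters, the missing trend, the omission of day cells and the block cannot move a difference. Many of the kept signs were therefore fixed in advance and are no measure of stability. Without a filter all 14 probe sets were below 0, where 60.7% of all were. Levels under an offset of 16, as for 162215_f_at of Sdc2, carry little signal over background.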
